A study of Mus musculus with 8 samples.

Results

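The 8 genes described here are markers of the parietal epithelial cells of the kidney: Ncam1, Dcdc2a, Cd44, Cldn1, Pax2, Pax8, Cd24a and Cd9. They were taken as a list of symbols and not picked by a threshold on these arrays. For each symbol the probe set with 1 gene symbol and the highest mean over all arrays was used. All 8 were measured, among 22180 genes with such a probe set.

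Parietal epithelial cells are the flat cells that line Bowman's capsule around the glomerular tuft. In focal segmental glomerulosclerosis and in crescentic disease they can become activated, proliferate, take up CD44 at their surface, migrate onto the tuft and lay down matrix. Some of them have been described as a progenitor pool for podocytes, the epithelial cells of the filtration barrier, and CD24 is one of the surface markers used to define that pool in human kidneys.

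The data are 8 Affymetrix arrays, 1 per sample, of RNA from glomeruli of mice aged 13 weeks. All mice had received doxycycline for 3 weeks from an age of 8 weeks. The control group (n = 2) is labelled as control, with no alleles given and no mention of vehicle. The other 2 groups are of the genotype Tln1 Pod-rtTA TetO-Cre, which per its name carries a doxycycline-driven Cre that acts in podocytes on Tln1, the gene of the integrin-binding protein talin 1. These mice then received vehicle (Tln1 vehicle, n = 3) or valproic acid, which inhibits histone deacetylases (Tln1 VPA, n = 3), for 2 weeks. By this design the targeted cell is the podocyte, and the parietal cell is not the cell in which Cre is driven. The labels do not say that arrays stand for separate animals, and p-values cover only the variation among the arrays at hand, part of which may be technical.

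Values are RMA log2 expression, so a difference of 1 is a doubling. The 3 comparisons are given in one order throughout: Tln1 vehicle against control, Tln1 VPA against Tln1 vehicle, and Tln1 VPA against control. Tln1 itself ranged from 8.59 to 8.97 over the 8 arrays, which checks no label, as podocytes are only a part of the isolate and it is not known here whether its probes lie in the deleted region. The arrays fell into 2 sets that cut across the groups. The second set holds 3 arrays (control 2, Tln1 vehicle 3, Tln1 VPA 3), and the first set the other 5. The mean of 14 proximal tubule markers was 11.77 to 12.08 on first-set arrays and 10.75 to 11.27 on second-set arrays. For 15 podocyte markers it was 6.99 to 7.56 and 8.09 to 8.65, respectively. The defining tubule markers Lrp2, the endocytic receptor megalin (11.42 to 12.46), and Umod, uromodulin of the thick ascending limb (10.83 to 11.69), were detected at high signal on every array, as were the podocyte genes Nphs1, nephrin (7.21 to 9.76), and Podxl, podocalyxin (9.31 to 11.13). The isolates therefore contained tubular as well as glomerular RNA. Pax2, Pax8, Cd24a and Cd9 are also made by tubule cells and Cd44 and Cd9 by leukocytes, so the arrays do not show which cell a transcript came from. In such bulk samples, fewer cells of a type and less RNA per cell cannot be told apart. The mean of 3 Y-linked genes was 3.57 on control 1 and 4.85 to 6.996 on the Tln1 arrays of the first set, and 2.56 to 2.72 on the arrays of the second. Y-linked levels thus moved with the groups within the first set. With their mean as a covariate no member was called. In Tln1 vehicle against control, Cldn1 then stood at -0.71 (SE 0.21, limma adjusted p = 0.31) beside -0.26 without the covariate, Cd44 at 0.41 (SE 0.16, limma adjusted p = 0.40) beside 0.10, and Dcdc2a at 0.21 (SE 0.18) beside 0.09.

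Of the 4 surface proteins among the markers, not counting the junction protein claudin-1, Ncam1, Cd24a and Cd9 separated groups in at least 1 comparison and Cd44 in none. Cldn1 separated none either. Among all genes, the arrays did not overlap for 8.37% in Tln1 vehicle against control and 9.55% in Tln1 VPA against control. In Tln1 VPA against Tln1 vehicle this was so for 3.55%. The comparisons share arrays, and the share of all genes separated in at least 1 of them was not computed. Ncam1 encodes the neural cell adhesion molecule, a homophilic immunoglobulin-type adhesion protein that is present in the developing nephron and in a subset of parietal cells (chr9:49502129-49799393; gene positions here are RefSeq's on GRCm38.p6). The 2 control arrays read 5.79 and 6.19 (log2), the vehicle arrays 5.76, 5.17 and 5.24, and the VPA arrays 6.09, 5.86 and 5.78, each in replicate order. Every Tln1 vehicle array was thus below both control arrays and below every Tln1 VPA array, although the nearest arrays on each side lay almost at the same level. Group means were 5.99 ± 0.28 (SD), 5.39 ± 0.32 and 5.91 ± 0.16. Ncam1 was lower in Tln1 vehicle than in control by a log2 change of -0.60 (SE 0.22, 95% interval -1.11 to -0.09), and higher in Tln1 VPA than in Tln1 vehicle by 0.52 (SE 0.20, interval 0.07 to 0.97). Neither passed limma's test over all genes (adjusted p = 1.00 in each). The first difference was -0.33 from first-set and -0.94 from second-set arrays alone. Both differences use the same Tln1 vehicle arrays. A second probe set, annotated to Ncam1 together with another gene, had a low mean of 3.63 and is not read as Ncam1.

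Cd24a encodes a small, heavily glycosylated protein that is anchored to the membrane by a lipid (chr10:43579169-43584265). The control arrays read 10.10 and 9.91, the vehicle arrays 10.57, 10.35 and 10.86, and the VPA arrays 10.70, 10.48 and 10.61. All 6 Tln1 arrays were above both control arrays, and the Tln1 groups overlapped. The change was 0.59 (SE 0.17, interval 0.18 to 0.99) in Tln1 vehicle against control and 0.59 (SE 0.17, interval 0.19 to 0.99, 1.51-fold) in Tln1 VPA against control, 2 comparisons that share the control arrays. Between Tln1 VPA and Tln1 vehicle it was 0.00, with a 95% interval of -0.36 to 0.36. None of these passed over all genes (limma adjusted p = 1.00). From first-set and second-set arrays alone, Tln1 vehicle stood 0.36 and 0.95 above control, and Tln1 VPA 0.49 and 0.69. The second Cd24a probe set, with a mean of 7.24, did not give the same order: it was 0.25 higher in Tln1 vehicle than in control with overlapping arrays, 0.48 higher in Tln1 VPA than in Tln1 vehicle with overlapping arrays, and 0.73 higher in Tln1 VPA than in control without overlap. Over all arrays the probe sets thus agree in sign for both Tln1 groups against control. They disagree on the size of the step between vehicle and valproic acid. Within the first set the second probe set did not show the rise in Tln1 vehicle: control 1 read 7.26, and Tln1 vehicle 1 and 2 read 7.32 and 6.99. In the second set control 2 read 6.49 and Tln1 vehicle 3 read 7.08.

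Cd44 encodes the hyaluronan receptor that is widely used as the marker of activated parietal cells, and leukocytes carry it too (chr2:102811141-102901669). Its promoter and those of 3 other members are shown here because these 4 genes had the larger positive differences between Tln1 VPA and Tln1 vehicle after Ncam1. The sequences are RefSeq's, on GRCm38.p6, each with 250 bases before and 50 bases after an annotated start site, read 5′ to 3′ on the gene's strand. Capitals mark matches on either strand to the GC box GGGCGG, the EGR core GTGGGCG, the CCAAT box CCAAT and the TATA box TATAAA, where the GC box and the EGR core can overlap by a few letters.
Cd44, chr2:102901616-102901915, minus strand: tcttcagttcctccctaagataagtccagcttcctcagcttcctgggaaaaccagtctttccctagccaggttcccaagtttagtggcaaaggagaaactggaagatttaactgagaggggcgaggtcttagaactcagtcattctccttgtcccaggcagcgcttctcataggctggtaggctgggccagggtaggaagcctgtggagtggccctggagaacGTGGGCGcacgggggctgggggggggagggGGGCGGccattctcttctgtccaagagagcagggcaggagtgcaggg
Cd9, chr6:125494711-125495010, minus strand: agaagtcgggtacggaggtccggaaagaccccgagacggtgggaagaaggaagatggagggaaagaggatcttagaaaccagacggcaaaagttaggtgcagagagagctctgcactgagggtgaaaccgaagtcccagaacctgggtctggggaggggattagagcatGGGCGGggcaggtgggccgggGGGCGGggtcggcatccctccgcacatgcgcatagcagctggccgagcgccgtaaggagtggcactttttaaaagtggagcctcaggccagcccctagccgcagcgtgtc
Cldn1, chr16:26371790-26372089, minus strand: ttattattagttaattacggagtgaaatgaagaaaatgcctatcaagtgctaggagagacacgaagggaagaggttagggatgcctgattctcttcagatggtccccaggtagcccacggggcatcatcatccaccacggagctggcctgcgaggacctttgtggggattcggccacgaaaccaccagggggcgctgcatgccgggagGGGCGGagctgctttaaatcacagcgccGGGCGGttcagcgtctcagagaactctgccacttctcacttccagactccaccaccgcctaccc
Dcdc2a, chr13:25055754-25056053, plus strand: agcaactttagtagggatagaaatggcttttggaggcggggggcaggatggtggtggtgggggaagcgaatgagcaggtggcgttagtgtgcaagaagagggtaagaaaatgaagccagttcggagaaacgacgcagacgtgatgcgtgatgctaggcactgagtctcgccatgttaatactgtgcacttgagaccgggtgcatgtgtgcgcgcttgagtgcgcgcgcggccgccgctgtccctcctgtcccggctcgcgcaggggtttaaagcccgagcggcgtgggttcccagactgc
The Cd44 window held 1 EGR core at bases 224 to 230 and 1 GC box at bases 254 to 259, counted from 1 at the 5′ end. The Cd9 window held 2 GC boxes, from bases 170 and 191, and the Cldn1 window 2, from bases 209 and 237. None of these motifs stood in the Dcdc2a window, which lies inside the gene's span (chr13:25055273-25210706) and not at its first base. Over all 32851 promoters of the table, 35.7% held the GC box, 7.97% the EGR core, 37.4% the CCAAT box and 13.6% the TATA box on either strand. A match describes the letters only. Promoters of 6 of the 8 genes were in the table, and those of Ncam1 and Cd24a were not analysed here.

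Cd44 had low values, with a mean of 4.44 over all arrays beside a median gene mean of 4.92. The control arrays read 4.28 and 4.18, the vehicle arrays 4.28, 4.09 and 4.64, and the VPA arrays 4.76, 4.28 and 5.04. The groups overlapped, with the highest arrays being Tln1 VPA 3 and Tln1 VPA 1. Cd44 was 0.46 higher in Tln1 VPA than in control (SE 0.25, 95% interval -0.11 to 1.03), 0.36 higher than in Tln1 vehicle (SE 0.22, interval -0.15 to 0.87), and 0.10 higher in Tln1 vehicle than in control (SE 0.25). Each interval includes 0. The difference between Tln1 VPA and control was 0.24 from first-set and 0.86 from second-set arrays alone. That between Tln1 VPA and Tln1 vehicle was 0.18 when Tln1 VPA 3 was left out, 0.23 when Tln1 vehicle 2 was and 0.56 when Tln1 VPA 2 was. The 14 macrophage and myeloid markers moved with this gene across arrays: their mean was highest on Tln1 VPA 3 (5.37), next on Tln1 vehicle 3 (4.91) and then on Tln1 VPA 1 (4.76), the 3 arrays on which Cd44 was highest as well. Their part in the Cd44 values was not tested. Of the defining macrophage genes, Cd68 ranged from 5.45 to 6.45 and Adgre1 from 3.03 to 4.91, and the T cell gene Cd3e stayed between 3.53 and 4.05.

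Cd9 encodes a tetraspanin, a membrane organiser that in mouse parietal cells has been linked to their activation and migration (chr6:125460266-125494760). The control arrays read 8.96 and 8.65, the vehicle arrays 9.04, 8.70 and 9.16, and the VPA arrays 9.40, 9.11 and 9.15. Every Tln1 VPA array was above both control arrays, and the Tln1 vehicle arrays lay across both ranges. The group mean was lowest in control (8.80 ± 0.22), intermediate in vehicle (8.96 ± 0.24) and highest in VPA arrays (9.22 ± 0.16), and neighbours in this order did not differ beyond their spread. The change from control to Tln1 VPA was 0.42 (SE 0.18, interval -0.0096 to 0.85, 1.34-fold, limma adjusted p = 1.00), and 0.30 and 0.50 from first-set and second-set arrays alone. The second Cd9 probe set had low group means, of 4.25 (control) to 4.37 (Tln1 VPA), and changes of 0.02, 0.11 and 0.12 in the 3 comparisons, all with overlapping arrays.

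Dcdc2a encodes a doublecortin-domain protein that binds microtubules and sits in the primary cilium (chr13:25055273-25210706). The control arrays read 5.58 and 5.91, the vehicle arrays 6.04, 5.57 and 5.91, and the VPA arrays 6.10, 6.18 and 6.29. The 3 Tln1 VPA arrays were above all 5 others, and the control and Tln1 vehicle arrays were mixed. The change was 0.35 (SE 0.16, interval -0.02 to 0.72, 1.28-fold) against Tln1 vehicle and 0.44 (SE 0.18, interval 0.03 to 0.86, 1.36-fold) against control, and neither passed over all genes (limma adjusted p = 1.00). Between Tln1 vehicle and control it was 0.09 (SE 0.18).

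The tight junction gene and the transcription factors differed more between the array sets than between the groups. Cldn1 encodes claudin-1, the sealing protein of junctions between parietal cells (chr16:26356645-26371839). The control arrays read 8.49 and 7.91, the vehicle arrays 8.21, 8.32 and 7.31, and the VPA arrays 8.64, 8.33 and 7.91. Within every group the array of the second set was the lowest, and all 3 such arrays (7.31 to 7.91) were below all 5 arrays of the first set (8.21 to 8.64). Over all arrays the change was -0.26 (SE 0.35) in Tln1 vehicle against control, 0.35 (SE 0.32) in Tln1 VPA against Tln1 vehicle and 0.09 (SE 0.35) in Tln1 VPA against control. With the array set as a block the standard error fell to 0.14 and 0.12 for the first 2 comparisons. The changes were then -0.38 (limma adjusted p = 0.62) and 0.35 (limma adjusted p = 0.89), each with the same sign within both sets. With this block 7.3%, 5.43% and 8.12% of all genes had an unadjusted p below 0.05 in the 3 comparisons, beside 1.45%, 1.26% and 1.87% without it, and 0 genes were called. In the first set, Tln1 vehicle lay 0.23 below control and 0.22 below Tln1 VPA, and in the second set 0.60 below each. Over all arrays, the difference between Tln1 VPA and Tln1 vehicle was 0.03 without Tln1 vehicle 3 and 0.17 without Tln1 VPA 1.

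Pax2 and Pax8 encode paired-domain transcription factors that specify the nephron in the embryo, remain on in parietal cells and parts of the tubule, and are lost as podocytes mature. For Pax2 (chr19:44746601-44838269) the control arrays read 6.92 and 6.22, the vehicle arrays 7.03, 7.03 and 6.69, and the VPA arrays 7.07, 7.41 and 6.23. Its second-set arrays (6.22 to 6.69) were again below all first-set arrays (6.92 to 7.41). For Pax8 (chr2:24420551-24475599) the control arrays read 9.27 and 9.18, the vehicle arrays 9.34, 9.38 and 9.24, and the VPA arrays 9.45, 9.44 and 9.18. It varied least of the 8 genes, over a range of 0.27, and its second-set arrays (9.18 to 9.24) were below its first-set arrays (9.27 to 9.45). With group held constant, the second set lay below the first by a log2 difference of -0.71 (SE 0.11) for Cldn1, -0.69 (SE 0.14) for Pax2 and -0.16 (SE 0.06) for Pax8. As the sets were found from all genes on these arrays, these are descriptions without a test. Differences at least as large as that of Cldn1 were seen in 10.4% of all genes, and 11.5% for Pax2, so the sets parted many genes in this way. For the small difference of Pax8 the share was 66.9%. For the other members the difference ranged from -0.04 (Ncam1) to 0.33 (Cd44), and those of Cd44 and Dcdc2a (0.18) exceeded that of Pax8 in size. The proximal tubule markers were likewise lower in the second set, and their part in the Cldn1, Pax2 and Pax8 values was not tested. No difference between groups was resolved for either PAX gene. For Tln1 VPA against Tln1 vehicle the 95% interval was -0.75 to 0.73 for Pax2 and -0.24 to 0.31 for Pax8.

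**Figure D1:**
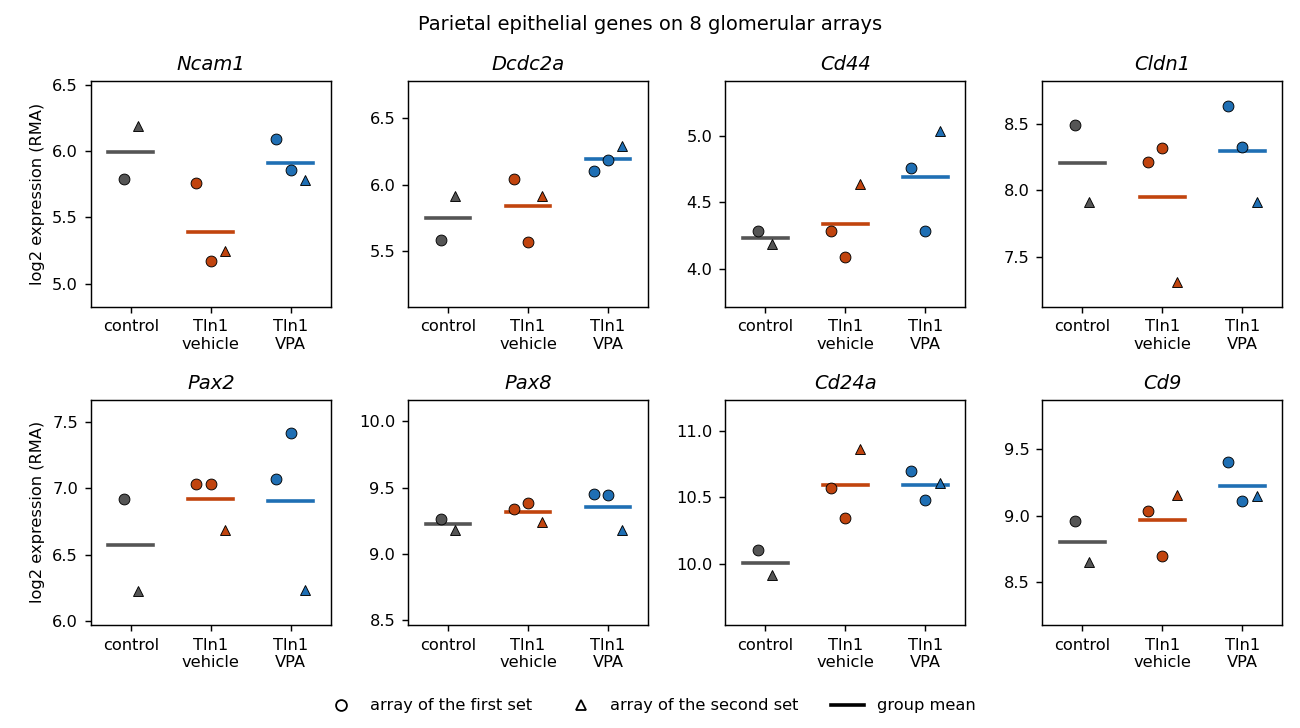
RMA log2 expression of the 8 genes (one panel each, y axes of equal span) in control, Tln1 vehicle and Tln1 VPA arrays, with 1 point per array, circles for the first array set, triangles for the second, and a line at the group mean. Cd24a is lowest on the 2 control arrays, Dcdc2a is highest on the 3 Tln1 VPA arrays, and the triangles lie lowest for Cldn1, Pax2 and Pax8.

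Cd24a stood higher and Ncam1 lower on every Tln1 vehicle array than on the control arrays, and the other 6 markers overlapped. In this comparison, which asks what differs after the podocyte change, 6 of the 8 genes were higher and 2 lower, beside 55.6% of all genes higher. The median log2 change was 0.10, beside 0.02 over all 22180 genes. The groups' arrays did not overlap for 2 of the 8 genes, 1 higher and 1 lower, where this was so for 8.37% of all genes (4.78% higher and 3.59% lower). Limma called 0 genes at an adjusted p below 0.05 (0.0% of all genes), and 322 genes, 1.45%, had an unadjusted p below 0.05 (0.78% higher and 0.672% lower), Cd24a and Ncam1 among them. The median of the 8 was 0.00 from first-set arrays alone and 0.26 from second-set arrays alone. Leaving out control 2 gave 0.03, leaving out Tln1 vehicle 2 gave 0.23 and leaving out Tln1 vehicle 3 gave 0.06.

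After 2 weeks of valproic acid, 7 of the 8 markers stood higher in Tln1 VPA than in Tln1 vehicle glomeruli, led by Ncam1, and Pax2 was lower, at -0.01, joined by Cd24a after quantile normalisation or median centring (its change was 0.00 as deposited). The median change was 0.30 (1.23-fold), beside 0.00 over all genes, of which 51.3% were higher. All Tln1 VPA arrays were above all Tln1 vehicle arrays for 2 of the 8, Ncam1 and Dcdc2a, beside 1.98% of all genes with such a separation upward, 1.57% downward and 3.55% in either direction. Limma called 0 genes (0.0%), and 280 genes (1.26%) had an unadjusted p below 0.05 (0.834% higher and 0.428% lower), with Ncam1 as the only member. Ncam1, Dcdc2a and Cd44 had nearly the same difference within both array sets: 0.51 and 0.54, 0.34 and 0.38, and 0.34 and 0.40. Pax2, Pax8, Cd24a and Cd9 had opposite signs in the sets. The median was 0.28 from first-set and 0.18 from second-set arrays alone, and 0.17 when either Tln1 vehicle 2 or Tln1 VPA 1 was left out.

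Cd24a, Dcdc2a and Cd9 stood higher on every Tln1 VPA array than on the control arrays. Genotype and drug differ together here and cannot be told apart. Of the 8 genes 7 were higher and Ncam1 was lower (-0.08, SE 0.22), with a median of 0.38 (1.30-fold) beside 0.02 over all genes, of which 56.8% were higher. The 3 separated genes compare with 5.57% of all genes separated upward, 3.98% downward and 9.55% in either direction. Limma called 0 genes (0.0%), and 414 (1.87%) had an unadjusted p below 0.05 (1.23% higher and 0.64% lower), among them Cd24a and Dcdc2a. The median was 0.27 from first-set and 0.19 from second-set arrays alone, and 0.19 when control 2 was left out. This comparison shares its control arrays with the first and its Tln1 VPA arrays with the second, so the 3 sets of values are not independent.

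**Figure D2:**
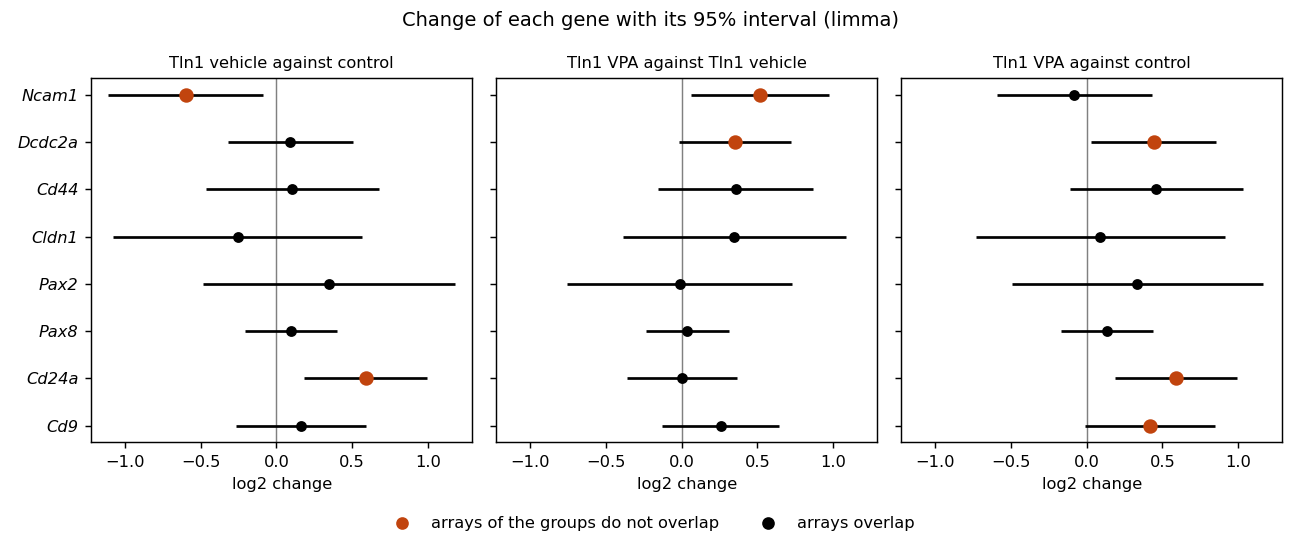
Log2 change of each gene (point) with its 95% interval (line) from the limma fit, in the 3 comparisons. Orange points mark genes for which all arrays of one group lie beyond all arrays of the other: Ncam1 and Cd24a in Tln1 vehicle against control, Ncam1 and Dcdc2a in Tln1 VPA against Tln1 vehicle, and Dcdc2a, Cd24a and Cd9 in Tln1 VPA against control.

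**Figure D3:**
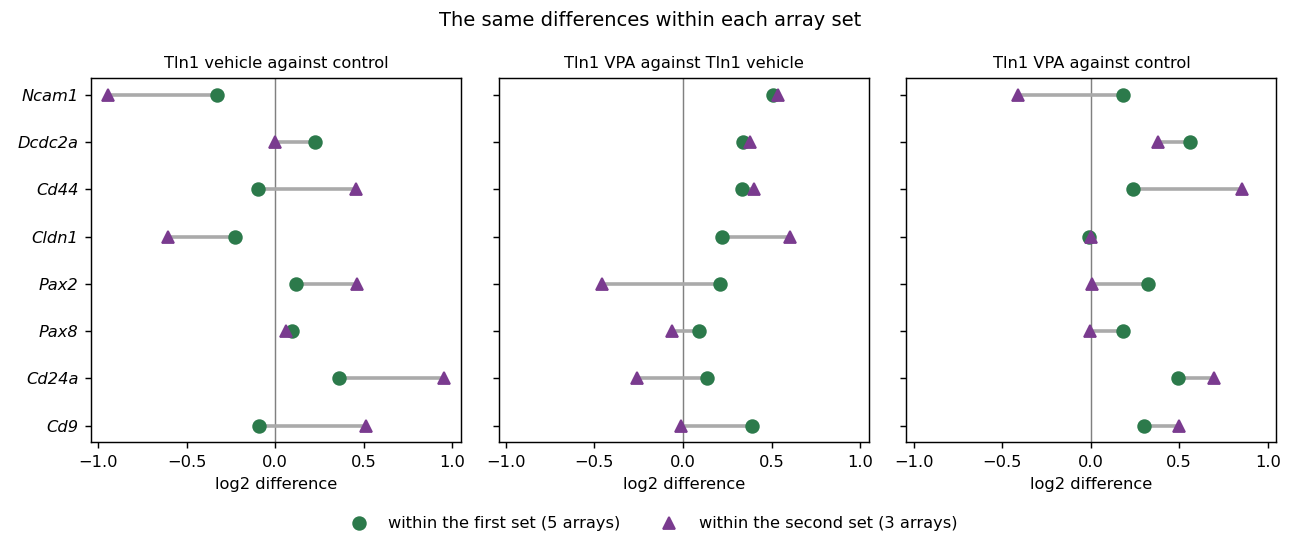
The same log2 differences computed within the first array set (circles, 5 arrays with 1 control) and within the second (triangles, 3 arrays with 1 per group), joined by a grey line. In Tln1 VPA against Tln1 vehicle the circles and triangles of Ncam1, Dcdc2a and Cd44 nearly coincide, while those of Pax2 lie at 0.21 and -0.45.

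Among 14 other genes described in parietal cells, no gene passed over all genes in any comparison (limma). In Tln1 VPA against Tln1 vehicle 11 of the 14 were higher and 3 lower, with a median of 0.18 (0.28 from first-set and -0.0055 from second-set arrays alone). The counts were also 11 and 3 in Tln1 VPA against control, with a median of 0.29. Vcam1, an adhesion molecule of activated epithelium and endothelium, was 1.02 higher in Tln1 VPA than in Tln1 vehicle (SE 0.27, limma adjusted p = 1.00), without overlap, by 1.37 among first-set and 0.32 among second-set arrays. Krt8 and Krt18, the keratins of simple epithelia, were 0.57 (SE 0.26) and 0.46 (SE 0.26) above control in Tln1 VPA arrays. In Tln1 vehicle against control 8 were higher and 6 lower, with a median of 0.05. Cdh6, a cadherin of the developing proximal nephron, was lower there on all arrays (-0.69, SE 0.34).

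The partners of the members moved less evenly. CD9 and CD44 work with growth factor receptors, integrins and hyaluronan, and of 16 such genes measured, 9 were higher and 7 lower in Tln1 vehicle against control, 6 and 10 in Tln1 VPA against Tln1 vehicle, and 8 and 8 in Tln1 VPA against control. Pdgfrb, a growth factor receptor chiefly of mesangial cells, was 0.74 higher in Tln1 vehicle than in control (SE 0.19) and 0.36 lower in Tln1 VPA than in Tln1 vehicle (-0.36, SE 0.17), without overlap in each. The second difference was -0.54 from first-set and -0.0080 from second-set arrays alone. The mean of 10 mesangial and smooth muscle markers, Pdgfrb among them, ran from 6.42 to 6.69 (control), 6.99 to 7.20 (vehicle) and 6.74 to 6.83 (VPA). Cxcr4, the receptor of the chemokine Cxcl12, was 0.68 higher in Tln1 VPA than in control (SE 0.34), without overlap, and Cxcl12 was 0.33 lower in Tln1 VPA than in Tln1 vehicle (-0.33, SE 0.13). The 13 other tetraspanins had medians of 0.05, -0.02 and -0.01 in the 3 comparisons. Cd81, a close partner of Cd9, was 0.15 lower in Tln1 VPA than in Tln1 vehicle (-0.15, SE 0.10).

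Of 20 other claudin and tight junction genes, 12, 12 and 13 were higher in the 3 comparisons, with medians of 0.02, 0.04 and 0.02. Cldn4, a claudin of the distal nephron and collecting duct, was 0.85 higher in Tln1 VPA than in control (SE 0.22, limma adjusted p = 1.00) and 0.51 higher than in Tln1 vehicle (SE 0.20), without overlap in each. The difference from Tln1 vehicle was 0.71 from first-set and 0.11 from second-set arrays alone. Of 12 nephron transcription factors and PAX partners, Sall1, a zinc finger factor of the nephron progenitor, was 0.61 below control in Tln1 vehicle on every array (-0.61, SE 0.18, limma adjusted p = 1.00) and at -0.41 (SE 0.18) in Tln1 VPA. The list's medians were -0.06, -0.04 and 0.02. Among 14 Notch pathway genes, Hes1, a target of the pathway, was 0.43 above control in Tln1 vehicle (SE 0.13, without overlap), and Hey1, another target, was at -0.35 (SE 0.20). In Tln1 VPA against control 4 of the 14 were higher and 10 lower, with a median of -0.14.

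Proliferation genes stood highest on the Tln1 VPA arrays, as did the members by their median deviation but not by their mean level. The mean of 9 such genes ran from 4.17 to 4.37 (control), 4.38 to 4.61 (vehicle) and 4.75 to 5.36 (VPA), without overlap between the groups. The median deviation of the 8 members from their own gene means was -0.05 and -0.25 (control), 0.05, -0.21 and -0.05 (vehicle), and 0.28, 0.13 and 0.09 (VPA), each in replicate order. By this measure all 3 Tln1 VPA arrays were above the other 5 for the members, as they were by the mean level for the proliferation genes. Tln1 VPA 1 was the highest array for each. Among the other 5 arrays the orders differed. Tln1 vehicle 2 was above control 1 for the proliferation genes (4.51 and 4.37) and below it for the members (-0.21 and -0.05). By their mean level the members did not separate in this way, with Tln1 vehicle 1 at 7.534 and Tln1 VPA 3 at 7.523. Mki67, the usual marker of dividing cells, was 1.45 higher in Tln1 VPA than in control (SE 0.24, limma adjusted p = 1.00). Whether dividing cells contribute to the members' values was not tested. In Tln1 VPA against Tln1 vehicle, markers of other glomerular cells and of the tubule mostly stood lower and myeloid markers higher. Proximal tubule markers were lower for 12 of 14 (median -0.09, with -0.22 from first-set and 0.13 from second-set arrays alone). Loop, distal tubule and collecting duct markers were lower for 10 of 14 (median -0.13). Podocyte markers were lower for 13 of 15 (median -0.23), glomerular endothelial markers for 11 of 12 (median -0.36) and mesangial and smooth muscle markers for 9 of 10 (median -0.36), and myeloid markers were higher for 12 of 14 (median 0.24). In Tln1 vehicle against control the endothelial markers were higher for 10 of 12 (median 0.34) and the mesangial markers for 10 of 10 (median 0.53). The endothelial median was -0.10 from first-set and 0.94 from second-set arrays alone, so its sign turned between the sets. The mesangial median was 0.49 and 0.665, respectively. No gene of these lists passed over all genes (limma), and their part in the members' values was not tested.

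**Figure D4:**
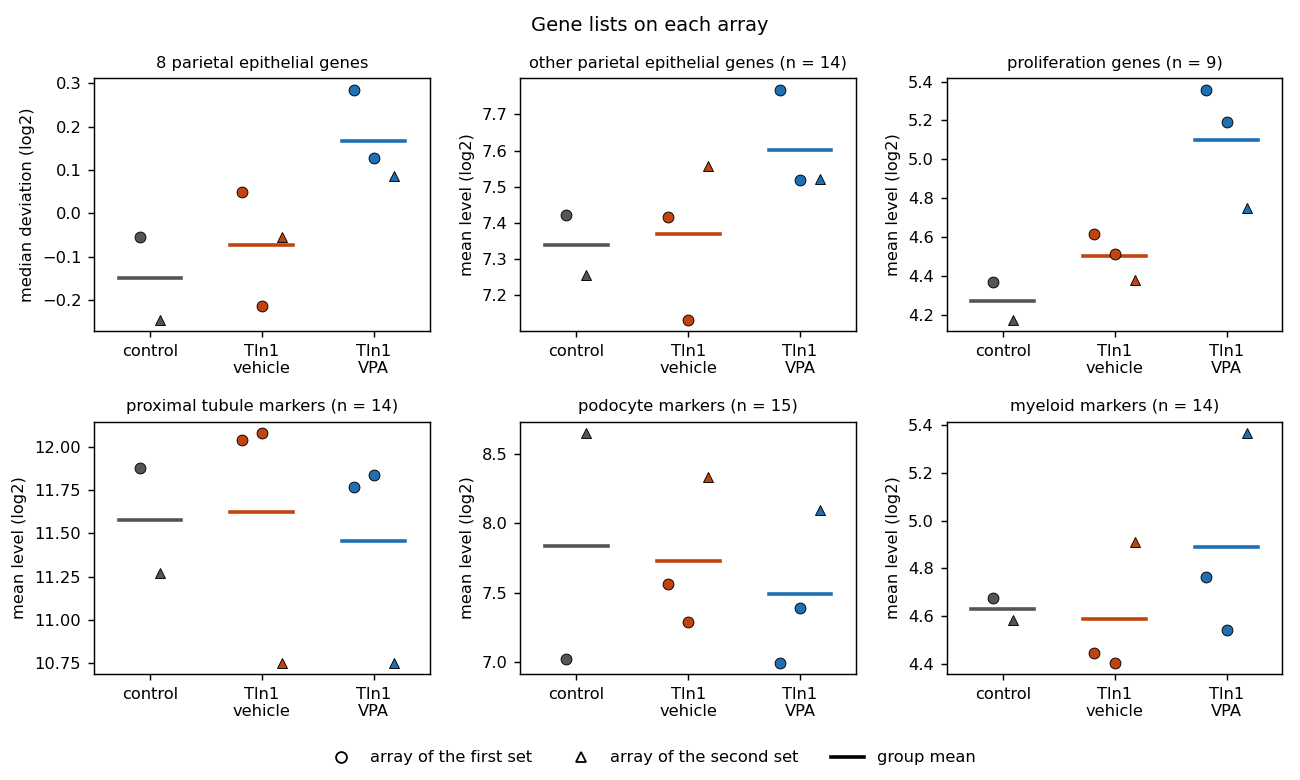
Levels of gene lists on each array by group, as the median deviation of the 8 parietal epithelial genes from their gene means (log2, top left) and as the mean log2 level of the other lists, with circles for the first array set, triangles for the second and a line at the group mean. Proliferation genes by mean level, and the 8 members by median deviation, are highest on the 3 Tln1 VPA arrays. Proximal tubule and podocyte markers follow the array set.

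The genes whose profile lay closest to each member were sought among 11090 genes above the median level, by Pearson's r over the 8 arrays after subtracting each array set's mean. They were Got2 and Ppil1 for Ncam1 (r = 0.987 and 0.985), Pdk4 and A930033H14Rik for Dcdc2a (0.976 and 0.965), Ddx58 and Ifngr2 for Cd44 (0.987 and 0.983), and Kpnb1 and Rpp30 for Cldn1 (0.996 and 0.986). For Pax2 they were Strn4 and Crocc (0.981 and 0.978), for Pax8 Emsy and Prrt2 (0.974 and 0.969), for Cd24a Pus10 and Rnf135 (0.984 and 0.976), and for Cd9 Rbm7 and Kctd1 (0.993 and 0.990). No member was closest to another member, but Cd44 lay below the median level and so could not be found as a neighbour. The values of r were picked as the highest of many over 8 arrays and are given as a description. A close profile did not mean a change of like size: Got2 differed by 0.07 between Tln1 VPA and Tln1 vehicle where Ncam1 differed by 0.52, while Pdk4, a kinase that restrains pyruvate dehydrogenase, differed by 0.71 where Dcdc2a differed by 0.35.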

How the data were processed

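RNA of mouse glomeruli, biotin-labelled for Affymetrix arrays per the labels' protocols, was measured on 8 arrays. The authors deposited log2 expression values. The submitters' processing notes name RMA and limma, without versions. The genome build is not given in the sources used here. Precision is limited by how few arrays there are.

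Of 41345 probe sets (log2 values 1.49 to 13.9), 23521 had 1 gene symbol, 1814 several and 16010 none. The probe set with the highest mean was kept per gene. One limma fit (limma 3.58.1, R 4.3.3; lmFit, eBayes, group as the only term, two-sided, Benjamini-Hochberg over all 22180 genes, called below 0.05) gave all 3 comparisons. Intervals are 95% limma intervals of single genes. The members and lists were chosen with earlier results of these data known, as were the promoter motifs, and lists are described by counts and medians only. Genes named from a list are among the 3 with the smallest p in a comparison or are its first 2 genes. The array sets came from clustering on correlation over all genes.

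Deviations of vehicle and VPA arrays with the same number correlated (r = 0.570, 0.609 and 0.787), each above the 0.1 set as the rule for pairs. The main fit nevertheless paired no arrays, so its SEs, intervals and p-values are unpaired. Only the replicate block, an alternative, joined arrays of the same number, control arrays included. No label states a pairing, and arrays of the first set with different numbers correlated nearly as much (r = 0.51 and 0.515), so number and array set are not separated. Control shares only 2 numbers with each group. The deviations of control 2 correlated negatively with those of Tln1 vehicle 2 (r = -0.591) and Tln1 VPA 2 (r = -0.496), which the replicate block joins to it. Data were simulated with each gene's real residual spread. Of 100 genes changed by 1 log2 unit, 46%, 48% and 38% were called in the 3 comparisons, in the order used in the results. Of 100 genes changed by 2, 84%, 86% and 86% were called. The simulated noise was independent for each gene and array and held no array sets. The real arrays do fall into 2 sets, so these shares need not hold for them. Alternatives covered probe set choice, low values, scaling, eBayes settings, array weights, blocks, a Y-linked covariate and each array left out. Figures were drawn with matplotlib 3.10.9.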

Additional observations from a re-analysis of the deposited data

How the results depend on the processing

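Of the 21 alternatives, the second array set alone gives no test, and under the others no member was called (smallest limma adjusted p = 0.215). Of the 24 changes (8 genes in 3 comparisons), 10 kept their sign throughout, with these ranges when 1 array was left out: Ncam1 -0.80 to -0.40 and Cd24a 0.45 to 0.71 (Tln1 vehicle against control), Ncam1 0.41 to 0.70, Dcdc2a 0.22 to 0.45, Cd44 0.18 to 0.56 and Cldn1 0.0285 to 0.54 (Tln1 VPA against Tln1 vehicle), and Dcdc2a 0.28 to 0.61, Cd44 0.29 to 0.67, Cd24a 0.50 to 0.69 and Cd9 0.26 to 0.57 (Tln1 VPA against control). The other 14, mostly small, turned at least once, and the cause was not tested. In the order Tln1 vehicle against control, Tln1 VPA against Tln1 vehicle and Tln1 VPA against control, the median of the members ranged over 0.0303 to 0.23, 0.17 to 0.32 and 0.19 to 0.45 when 1 array was left out, with 0 genes called each time, and was 0.26 and 0.19 in the first and the third comparison within the second array set, where each group has 1 array (added after seeing the data).

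With the replicate block 4 genes were called in Tln1 vehicle against control and 1 in Tln1 VPA against control, beside 0 in the main fit, and 21 with the Y-linked covariate in the latter. The block changed no other call. In Tln1 vehicle against control, signs turned for Cd44 with the replicate block (-0.058) and in the first set alone (-0.10), for Cd9 in the first set alone (-0.0901), for Cldn1 with array weights (0.0021), for Pax2 (-0.0638) and Pax8 (-0.0124) with the Y-linked covariate, and for Dcdc2a within the second set (-0.00325). In Tln1 VPA against Tln1 vehicle they turned for Pax2 with array weights (0.18), in the first set alone (0.21) and with the Y-linked covariate (0.14), and for Cd24a with quantile normalisation (-0.0018), median centring (-0.0039), the covariate (-0.0532) and within the second set (-0.26). Pax8 (-0.0623) and Cd9 (-0.0125) turned within the second set. In Tln1 VPA against control they turned for Ncam1 in the first set alone (0.18), for Cldn1 after blocking on array set (-0.0283), in the first set alone (-0.0091) and with the covariate (-0.20), and for Pax8 within the second set (-0.0020).

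Leaving out 1 array turned signs in these ranges: Dcdc2a -0.0723 to 0.26, Cd44 -0.0471 to 0.23 and Cldn1 -0.55 to 0.062 (Tln1 vehicle against control), Pax2 -0.27 to 0.33, Pax8 -0.0083 to 0.13 and Cd24a -0.12 to 0.14 (Tln1 VPA against Tln1 vehicle), and Ncam1 -0.28 to 0.12, Cldn1 -0.20 to 0.38 and Pax2 -0.0116 to 0.68 (Tln1 VPA against control). A lone control array was assumed to vary like the other groups. Cd44 lay below the median gene level, so the setting with only genes above it gave no Cd44 value.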

Other observations

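Several members had exactly the same deposited value on more than one array. Cd44 had the same log2 value of 4.28 on control 1, Tln1 vehicle 1 and Tln1 VPA 2, Cldn1 the same value of 7.91 on control 2 and Tln1 VPA 3, and Pax2 the same value of 7.03 on Tln1 vehicle 1 and 2. Such equal values (to 5 decimals) occurred in 10199 genes, 46.0% of all, and were thus common in these processed data. For Cd44 they place 1 array of each group at a single level.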
